A study of Mus musculus with 9 samples.

Results

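The genotypes were compared in B cells that had been activated for 3 days, to ask which pathways and functions differ when *Mct1* is lost. *Mct1* is listed in the deposited table under its gene symbol *Slc16a1*. All 5 day 3 libraries among the 9 RNA sequencing libraries of the series were taken by their labels, and no expression value was used to choose them. The 3 libraries of Mct1f/fMb1Cre mice (cKO, replicates 1 to 3) were set against the 2 of Mb1Cre mice (control, replicates 1 and 2). All 5 came from splenic primary B cells kept in culture for 3 days, activated by IL-4 at 50 ng/ml and by LPS at 10 μg/ml, and the mice of both genotypes were 6 to 8 weeks old and carried the *Mb1*-Cre allele. In Mct1f/fMb1Cre mice, which were made on the C57BL/6J background, 2 loxP sites enclose the first exons of *Mct1*, and Cre under *Mb1* (*Cd79a*) control removes them in the B cell lineage. The comparison thus has Cre on both sides and no Cre-free or untreated day 3 group. The other 4 libraries, 2 of each genotype, were made from B cells on day 0. They enter below to estimate the spread and to give levels before activation. They also enter the filter on mean expression and a comparison of the genotype difference between the days.

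Resting B cells recirculate between blood and lymphoid organs and are held in a quiescent state by factors such as KLF2. LPS, through TLR4 and CD180, and IL-4, through STAT6, drive them to divide, to switch isotype, to secrete cytokines, to display costimulatory ligands and, in part, to become plasmablasts. MCT1 is a proton-coupled carrier of lactate, pyruvate and ketone bodies in the plasma membrane. Genes of histone acetylation, glycolysis and oxidative phosphorylation are not described as groups here, and the text follows the immune, signalling, differentiation and housekeeping genes.

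Expression is given as deposited, as FPKM, the fragments per kilobase of transcript scaled to the mapped fragments of the library. FPKM holds no read counts, so that the depth behind a value is unknown. Differences are log2 fold changes of log2(FPKM + 1), cKO minus control, with their standard error (SE) and the adjusted p from limma over 10823 tested genes. The added 1 shrinks the change of weakly expressed genes. Called genes had an adjusted p below 0.05 together with a log2 difference of more than 0.5 in either direction. The labels do not say that libraries of 1 group came from separate mice, so the p values measure the spread between libraries, which may be technical. Within the day 3 groups, Pearson's r across genes was 0.998 for each pair of libraries, and FPKM sums were 547355 to 563586. The B cell markers *Cd79a*, *Cd79b*, *Ms4a1* and *Pax5* were present in each of these libraries. *Cd79a* had 575 and 567 FPKM in control and 557, 502 and 511 FPKM in cKO libraries, and *Pax5*, the lowest of them, had 84.6 and 91.7 and 98.7, 94.6 and 96 FPKM. In a bulk library, fewer cells of a type and less RNA per cell cannot be told apart.

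*Slc16a1* (chr3:104638664-104658462, GRCm38) was the first gene examined, since it checks the day 3 labels. It stood at 22.6 and 23 FPKM in the control libraries and at 10.8, 9.81 and 9.5 FPKM in the cKO libraries. The groups did not overlap, and the cKO mean of 10.0 ± 0.690 FPKM (SD, n = 3) was 44.1% of the control mean of 22.8 ± 0.262 FPKM (SD, n = 2). The log2 fold change was -1.11 (SE 0.0712, adjusted p = 9.07e-06). An exact two-sided permutation test of the means gave p = 0.1, the smallest p that 3 libraries against 2 allow. A single value covers all exons, floxed or not. Before activation, on day 0, *Slc16a1* had 4.33 and 3.8 FPKM in control and 3.71 and 4.06 FPKM in cKO libraries. That difference was not called (log2 fold change -0.05, adjusted p = 0.844), so this gene checks the labels on day 3 only. Among the 10 tested monocarboxylate transporters and partners, *Slc16a1* was the 1 called gene, against 2.42% called among all tested genes. *Slc16a3*, which encodes the lactate exporter MCT4, had 33.1 and 30.9 FPKM in control and 25.5, 26.3 and 20.8 FPKM in cKO libraries and passed the adjusted p alone (log2 fold change -0.39, adjusted p = 0.0427). The mitochondrial pyruvate carrier genes *Mpc1* (-0.20, adjusted p = 0.0272) and *Mpc2* (-0.25, adjusted p = 0.0318) did so too.

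Over all tested genes, 262 (2.42%) were called, of which 96 (0.887%) were higher and 166 (1.53%) lower in cKO. By the adjusted p alone, 1650 genes (15.2%) passed, 653 (6.03%) higher and 997 (9.21%) lower. The median log2 fold change of all tested genes was -0.01. It and these shares are the values against which each gene list is read below, and no list was tested as a set. In 54 genes the change exceeded 1 on the log2 scale. The values of the genotypes did not overlap in any of the 262 called genes, nor in 47.1% of all tested genes. Predicted gene models made up 25 of the 96 higher and 6 of the 166 lower genes, against 3.26% of the tested genes. The named genes that were higher are therefore fewer than the count of higher calls.

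**Figure D1:**
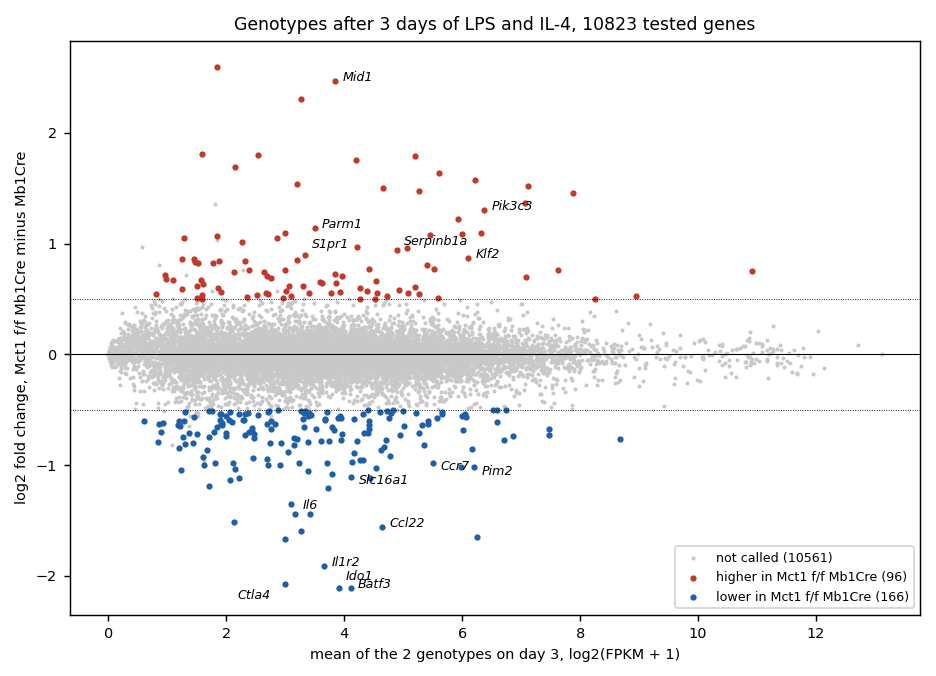
Log2 fold change (cKO minus control, day 3) against the mean of the genotypes on the log2(FPKM + 1) scale for 10823 tested genes. Blue points are the 166 genes called lower, red points the 96 called higher, grey points were not called, and dotted lines mark a log2 fold change of 0.5 in size. *Batf3*, *Ido1* and *Ctla4* lie lowest among the labelled genes, below -2.

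*Batf3*, *Ido1* and *Ctla4* had the largest decreases among genes of at least 5 FPKM. *Batf3*, an AP-1 family transcription factor that is known for its role in dendritic cells, had 28.8 and 25.2 FPKM in the control libraries and 5.44, 6.56 and 4.51 FPKM in the cKO libraries (log2 fold change -2.12, SE 0.148, adjusted p = 1.34e-05). *Ido1*, the first and rate-limiting enzyme from tryptophan to kynurenine, had 23.3 and 23.2 FPKM in control and 5.32, 4.73 and 3.92 FPKM in cKO libraries (-2.11, SE 0.102, adjusted p = 1.58e-06). *Ctla4*, an inhibitory receptor that binds CD80 and CD86 and is best known from T cells, had 12.1 and 11.6 FPKM in control and 2.23, 1.99 and 1.91 FPKM in cKO libraries (-2.08, SE 0.0888, adjusted p = 7.43e-07). The cKO means were 20.4% of the control mean for *Batf3*, 20% for *Ido1* and 17.3% for *Ctla4*, and the groups did not overlap. *Il1r2*, the decoy receptor for interleukin-1, followed with 20.1 and 17.8 FPKM in control and 4.62, 3.81 and 4.45 FPKM in cKO libraries (-1.91, SE 0.24, adjusted p = 0.000505). *Htr7*, a serotonin receptor, had 11.3 and 11 and 2.55, 2.66 and 3.31 FPKM, respectively (-1.67, adjusted p = 5.17e-06). Genes of TGF-β handling were among the 15 largest decreases as well. *Lrrc32*, which encodes GARP, the surface anchor of latent TGF-β, had 14.5 and 12.6 FPKM in control and 3.39, 4.17 and 3.85 FPKM in cKO libraries (-1.6, adjusted p = 5.17e-06), and *Eng*, the TGF-β coreceptor endoglin, had 5.11 and 5.61 and 2.15, 1.98 and 1.66 FPKM (-1.12, adjusted p = 2.64e-05). The transcript of the ligand itself, *Tgfb1*, went the other way and passed the adjusted p alone, with 93.9 and 97.3 FPKM in control and 109, 110.2 and 114 FPKM in cKO libraries (0.21, adjusted p = 0.0139).

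**Figure D2:**
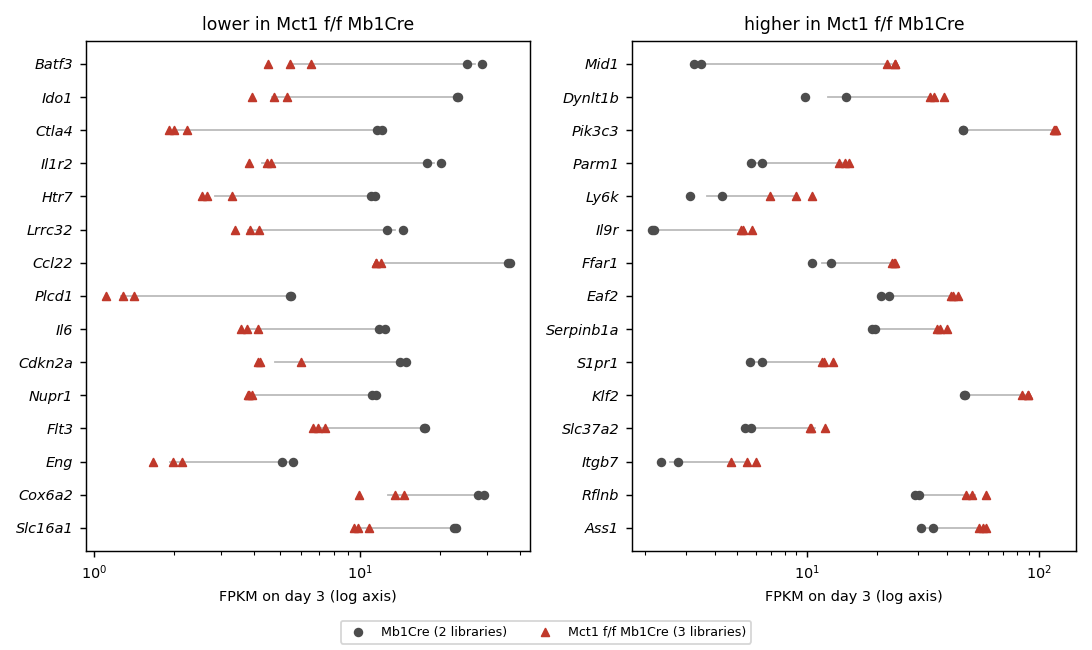
FPKM on day 3 (log axis) of the 15 genes with the largest called decrease and the 15 with the largest called increase among genes of at least 5 FPKM in the higher group. Circles are the 2 control libraries, triangles the 3 cKO libraries, and each line joins the group means; in none of the 30 genes do the groups overlap.

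Promoters of 5 lower genes and 1 higher gene are shown, with and without matches, because *Batf3* is itself an AP-1 family factor and several of the lower genes are known targets of NF-κB, STAT or interferon signalling. Each is the 250 bases before the annotated start in the RefSeq sequence of GRCm38.p6, written 5′ to 3′ along the strand of the gene, without exon sequence. The 5 patterns below were searched on both strands and separately, so that matches may overlap: AP-1 as TGANTCA, NF-κB as GGG, any 2 bases and TTTCC, the interferon-stimulated response element (ISRE) as GAAA, any 2 bases and GAAA, the E-box as CACGTG and STAT as TTCNNNGAA. Capitals mark the matches, positions count back from the start, and a match is a description of letters only.
Slc16a1, chr3:104638414-104638663, + strand, E-box at -200: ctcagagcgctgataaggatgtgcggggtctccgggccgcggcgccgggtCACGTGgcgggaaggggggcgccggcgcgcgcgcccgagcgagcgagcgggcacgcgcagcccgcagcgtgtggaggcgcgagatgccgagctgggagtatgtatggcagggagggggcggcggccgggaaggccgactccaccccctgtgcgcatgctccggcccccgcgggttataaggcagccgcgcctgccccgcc
Batf3, chr1:191098164-191098413, + strand, E-box at -247 and STAT at -239: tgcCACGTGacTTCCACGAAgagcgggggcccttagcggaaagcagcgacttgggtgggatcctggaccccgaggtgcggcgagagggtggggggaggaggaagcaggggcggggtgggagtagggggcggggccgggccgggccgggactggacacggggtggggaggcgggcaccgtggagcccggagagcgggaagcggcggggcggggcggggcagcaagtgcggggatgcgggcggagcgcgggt
Ctla4, chr1:60908775-60909024, + strand, no match: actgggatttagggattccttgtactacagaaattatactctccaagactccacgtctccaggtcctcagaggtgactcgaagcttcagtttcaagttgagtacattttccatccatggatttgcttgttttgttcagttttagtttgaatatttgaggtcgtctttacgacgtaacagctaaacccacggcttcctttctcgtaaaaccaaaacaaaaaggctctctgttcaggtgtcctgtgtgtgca
Il6, chr5:30012864-30013113, + strand, AP-1 at -249 and NF-κB at -44: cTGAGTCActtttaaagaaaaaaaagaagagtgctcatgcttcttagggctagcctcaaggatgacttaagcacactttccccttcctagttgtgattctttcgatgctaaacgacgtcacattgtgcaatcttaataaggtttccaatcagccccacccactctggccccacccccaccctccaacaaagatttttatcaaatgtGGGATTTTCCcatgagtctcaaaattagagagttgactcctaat
Rsad2, chr12:26456453-26456702, - strand, ISRE (reverse strand) at -120 and AP-1 at -87: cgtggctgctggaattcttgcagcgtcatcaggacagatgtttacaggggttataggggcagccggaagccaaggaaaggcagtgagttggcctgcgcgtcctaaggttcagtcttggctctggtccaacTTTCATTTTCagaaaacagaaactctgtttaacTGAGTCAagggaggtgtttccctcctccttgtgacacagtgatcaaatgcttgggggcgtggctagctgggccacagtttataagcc
Klf2, chr8:72318812-72319061, + strand, no match: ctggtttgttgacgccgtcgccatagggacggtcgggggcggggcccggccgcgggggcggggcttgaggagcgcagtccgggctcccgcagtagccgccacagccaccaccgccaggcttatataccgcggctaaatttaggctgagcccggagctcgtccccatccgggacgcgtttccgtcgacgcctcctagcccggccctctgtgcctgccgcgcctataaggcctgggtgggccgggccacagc

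Of the 262 called genes, 196 had a promoter in this table, 129 lower and 67 higher. A gene was counted if any of its promoters held a match. An ISRE match stood in 10.1% of the lower and 7.46% of the higher genes, against 3.56% of tested genes and 3.46% of all 27025 genes with a promoter. An NF-κB match stood in 5.43% of the lower and 4.48% of the higher genes (1.85% of tested genes, 1.65% of all), which is 7 and 3 genes. For AP-1 the shares were 9.30% of the lower and 4.48% of the higher genes, beside 5.15% of tested genes and 7.82% of all genes with a promoter. The E-box was found in 12.4% and 7.46% (10.1% of tested genes, 6.86% of all) and the STAT pattern in 6.98% and 2.99% (7.2% of tested genes, 8.13% of all). These shares were not tested.

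Cytokine and chemokine transcripts were lower in cKO cells where they were called. Of 23 tested genes of this list 0 were higher and 7 lower, and the list median was -0.06. Among all tested genes 0.887% were called higher and 1.53% lower. *Ccl22*, a chemoattractant for CCR4-bearing T cells, had 36.1 and 36.7 FPKM in the control libraries and 11.5, 11.5 and 12 FPKM in the cKO libraries (-1.56, SE 0.107, adjusted p = 1.27e-05). *Il6*, whose promoter holds the NF-κB match above and whose product supports plasma cells and T helper cells, had 11.8 and 12.5 FPKM in control and 4.13, 3.76 and 3.58 FPKM in cKO libraries (-1.44, SE 0.0847, adjusted p = 5.23e-06). *Il10* had 4.71 and 4.73 FPKM in control and 1.59, 2.07 and 2.06 FPKM in cKO libraries (-0.98, adjusted p = 0.000129). *Il12a* and *Ebi3*, whose products pair to form interleukin-35, were both lower. *Ebi3* was the higher of the pair in FPKM, with 227 and 214 FPKM in control and 128, 138 and 134 FPKM in cKO libraries (-0.73, adjusted p = 1.34e-05), and *Il12a* had 5.63 and 6.18 and 3.51, 3.47 and 2.4 FPKM (-0.75, adjusted p = 0.0012). *Csf1*, the macrophage growth factor, fell to 65.4% of control (-0.57, adjusted p = 0.000827), and *Ccl5*, a T cell and monocyte chemoattractant, to 67.6% (-0.56, adjusted p = 0.000345). *Ltb* and *Tgfb1* were the 2 members that passed the adjusted p upward, and neither was called. *Tnf*, at 12.5 and 11.4 FPKM in control and 11.9, 11.5 and 11.8 FPKM in cKO libraries (-0.02, adjusted p = 0.882), was not called.

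**Figure D3:**
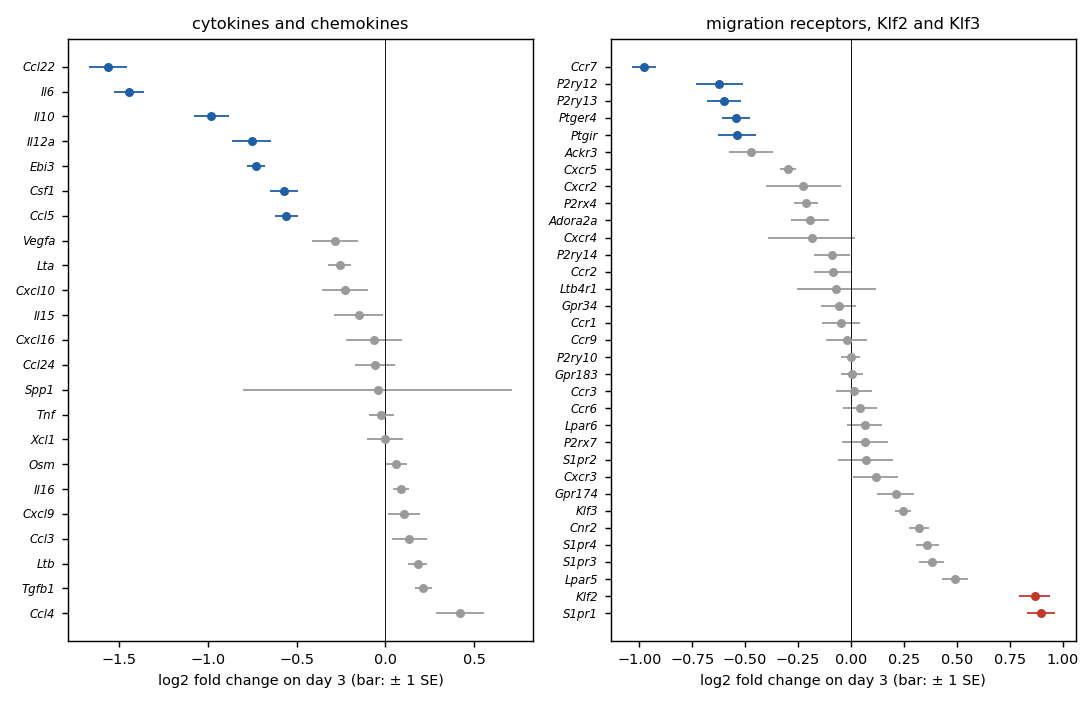
Log2 fold change on day 3 (cKO minus control) with its standard error for the 23 tested cytokine and chemokine genes and for tested genes of migration, of which some are not drawn. Blue marks genes called lower, red genes called higher, grey genes not called; the 7 called cytokine genes lie between -1.56 and -0.56, and in migration *Ccr7* and *S1pr1* mark the ends.

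*Cd80* and *Cd86*, the genes of a pair of costimulatory ligands, were lower. Of 24 tested costimulatory and checkpoint genes 1 was called higher and 3 lower (median -0.09), beside 0.887% and 1.53% of all tested genes. *Cd80* had 11.9 and 11.1 FPKM in the control libraries and 4.93, 5.7 and 5.34 FPKM in the cKO libraries (-0.99, SE 0.0689, adjusted p = 1.34e-05), and *Cd86*, which encodes the other ligand of CD28 and CTLA4, had 57.5 and 59.6 and 38.7, 40.00 and 42.8 FPKM (-0.52, adjusted p = 0.000281). The call of *Cd86* lay close to the fold change limit and held in 16 of 20 other settings. Receptor and both ligands of the CTLA4 axis were thus lower at the same time. *Slamf1*, a self-ligand receptor of activated lymphocytes, was the gene called higher, with 10.5 and 10.2 FPKM in control and 16.4, 16.4 and 17.3 FPKM in cKO libraries (0.64, adjusted p = 0.000486). *Cd274*, which encodes the PD-1 ligand PD-L1, was not called and had 16.4 and 16.9 FPKM in control and 17.3, 16.7 and 17.9 FPKM in cKO libraries (0.05, adjusted p = 0.615). In the TNF family, *Tnfsf9*, the 4-1BB ligand, had 9.43 and 10.8 FPKM in control and 5.58, 5.4 and 5.78 FPKM in cKO libraries (-0.75, adjusted p = 0.000389), and *Tnfrsf8*, the activation receptor CD30, had 26 and 24.7 and 15, 15.7 and 15.9 FPKM (-0.67, adjusted p = 0.000457). These were the 2 called genes among 21 tested, both lower, and *Fas* passed the adjusted p alone (-0.48, adjusted p = 0.00133).

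Receptors that place B cells in tissue were called in both directions. Among 35 tested genes of migration 2 were called higher and 5 lower, while 8 passed the adjusted p in each direction (median -0.02). The shares called over all tested genes were 0.887% and 1.53%, and those passing were 6.03% and 9.21%. The called increases were in genes of recirculation and quiescence. *Klf2*, which restrains proliferation and sustains exit receptors, had 47.5 and 48 FPKM in the control libraries and 84.3, 89.8 and 89.9 FPKM in the cKO libraries (0.87, SE 0.073, adjusted p = 4.15e-05). *S1pr1*, the sphingosine-1-phosphate receptor for exit into blood and lymph and a target of KLF2, had 6.37 and 5.68 FPKM in control and 12.9, 11.8 and 11.6 FPKM in cKO libraries (0.90, SE 0.0649, adjusted p = 1.6e-05). *Itgb7*, the integrin β7 chain of gut homing, which was tested with the integrins, rose from 2.77 and 2.34 FPKM in control to 4.68, 6.04 and 5.49 FPKM in cKO libraries (0.85, SE 0.0844, adjusted p = 0.000127). Lower was *Ccr7*, which guides cells to the T zone, with 58.1 and 61 FPKM in control and 28.1, 29.7 and 31.4 FPKM in cKO libraries (-0.98, SE 0.0567, adjusted p = 5.17e-06). The prostanoid receptor genes *Ptger4* (-0.54, adjusted p = 0.000464) and *Ptgir* (-0.54, adjusted p = 0.00247) were lower too. The other called members, *P2ry12* and *P2ry13*, had at most 1.46 FPKM in any day 3 library. *Gpr183*, the oxysterol receptor that positions activated B cells, was not called and had 56.4 and 57 FPKM in control and 55.6, 60.2 and 54.9 FPKM in cKO libraries (0.00, adjusted p = 0.966).

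The levels before activation are given for genes of both directions. *Klf2* had 468 and 579 FPKM in control and 423 and 425 FPKM in cKO libraries on day 0, and *S1pr1* had 128 and 119.6 and 112 and 122 FPKM. *Itgb7* had 75.8 and 75.2 and 69.7 and 66.1 FPKM on day 0. All 3 were lower on day 3 than on day 0 in every library, and the day 3 cKO level lay between the control level of day 3 and the levels of day 0. This did not hold for *Ccr7*, which had 108 and 118 FPKM in control and 95 and 101 FPKM in cKO libraries on day 0. *Ccr7* was lower on day 3 than on day 0 as well, but its day 3 cKO level lay below the control level of day 3. *Ido1* had 0.15 and 0.07 FPKM in control and 0.19 and 0.11 FPKM in cKO libraries on day 0, and *Ctla4* had 0.35 and 0.52 and 0.5 and 0.38 FPKM. *Ido1* and *Ctla4* thus stood above their day 0 values in all day 3 libraries, and lower in cKO than in control. *Batf3* had 5.73 and 8.36 FPKM in control and 6.84 and 7.65 FPKM in cKO libraries on day 0, so that its day 3 values in cKO libraries overlapped the day 0 range and those of the control libraries did not. The genotype difference on day 3 was tested against that on day 0 as an interaction in limma, which 9.42% of all tested genes passed at an adjusted p under 0.05. Of the 31 genes chosen for the text by name or by the size of their day 3 change, 27 passed, but that choice used the same day 3 difference and nothing is read from the count. On day 0, Y-linked transcripts were at or above the day 3 level in 1 of 4 libraries and below it in the others, with *Ddx3y* at 0.24 and 0.02 FPKM in control and 31.1 and 0.20 FPKM in cKO libraries, while all 5 day 3 libraries had 14.7 to 16.9 FPKM. The part of sex in the interactions was not tested.

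**Figure D4:**
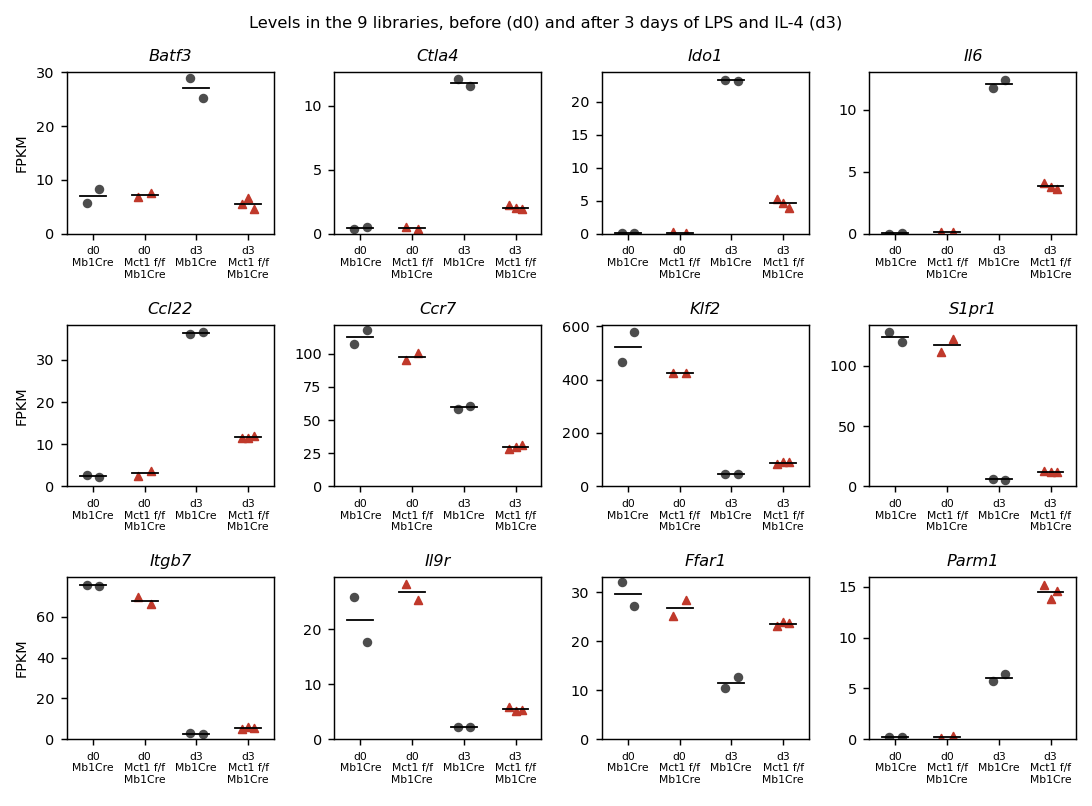
FPKM (linear axis from 0) of 12 genes in the 9 libraries, by genotype on day 0 (d0) and day 3 (d3). Circles are control and triangles cKO libraries, and bars are group means; the upper panels show genes that reach a lower day 3 level in cKO cells, and *Klf2*, *S1pr1*, *Itgb7*, *Il9r* and *Ffar1* are lower on day 3 than on day 0 but higher in cKO than in control cells.

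Transcription factors of the activated B cell were lower in part. Of 31 tested BATF, AP-1, IRF and MAF genes 0 were higher and 2 lower, *Batf3* and *Fosl2* (median -0.01). Beside this, 0.887% of all tested genes were called higher and 1.53% lower, and 6.03% and 9.21% passed the adjusted p. *Fosl2* had 2.98 and 2.95 FPKM in the control libraries and 0.86, 1.17 and 1.23 FPKM in the cKO libraries (-0.93, adjusted p = 0.00149). *Irf4*, which drives both isotype switching and plasma cell fate, had 80.3 and 77.8 and 55.9, 55.2 and 57.5 FPKM, just short of the fold change limit (-0.49, SE 0.0429, adjusted p = 5.54e-05). *Batf*, the abundant relative of *Batf3*, had 181 and 165 FPKM in control and 146, 139 and 141 FPKM in cKO libraries (-0.28, adjusted p = 0.00397). *Irf8*, a factor of the germinal centre and of resting B cells, was higher by the adjusted p alone (0.23, adjusted p = 0.00208). Of 27 tested NF-κB subunits and regulators 0 were called higher and 1 lower (median -0.04), and 3 and 7 passed the adjusted p. The called gene was *Traf1*, an NF-κB target, with 127 and 122 FPKM in control and 80.8, 87.8 and 93.9 FPKM in cKO libraries (-0.51, adjusted p = 0.00141), and its call held in 14 of 20 other settings. *Rel*, the subunit of lymphocyte activation, had 41.3 and 42.3 and 30.3, 30.5 and 30.6 FPKM and passed the adjusted p alone (-0.44, adjusted p = 0.000145).

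The receptors and feedback genes of cytokine signalling divided. Of 32 tested cytokine receptor genes 2 were called higher and 2 lower (median 0.01), beside 0.887% and 1.53% of all tested genes. *Il2ra*, the high-affinity interleukin-2 receptor chain CD25, had 44.9 and 48.8 FPKM in the control libraries and 27.1, 29.2 and 28.3 FPKM in the cKO libraries (-0.71, SE 0.0639, adjusted p = 5.93e-05), and *Il2rb* had 16.5 and 17.7 and 11.9, 10.6 and 11.4 FPKM (-0.56, adjusted p = 0.00194). Both are markers of activation. *Il9r*, the interleukin-9 receptor gene, was higher at 5.78, 5.18 and 5.28 FPKM in cKO against 2.15 and 2.19 FPKM in control libraries (1.02, SE 0.123, adjusted p = 0.000419), and *Lifr* at 9.74, 8.53 and 8.73 against 4.93 and 4.87 FPKM (0.76, adjusted p = 0.000294). In the STAT and SOCS list 0 of 30 genes were higher and 2 lower (median 0.00). *Socs3*, a feedback inhibitor of STAT3 signalling, had 33.5 and 30.9 FPKM in control and 17.4, 18.4 and 19.4 FPKM in cKO libraries (-0.78, adjusted p = 0.000355), and *Stat4* had 75.2 and 79.8 and 51.4, 52.6 and 54.8 FPKM (-0.54, adjusted p = 0.000738). *Socs1*, the feedback inhibitor that IL-4 induces, went the other way by the adjusted p alone, from 103 and 111 to 143, 155 and 143 FPKM (0.45, adjusted p = 0.00873). Among 35 immediate-early and feedback genes 1 was higher and 3 lower (median -0.11). *Pim2*, a survival kinase, had 98 and 97.5 FPKM in control and 47.9, 48.5 and 46.5 FPKM in cKO libraries (-1.02, SE 0.0398, adjusted p = 4.26e-07). The ERK phosphatase genes *Dusp4* (-0.96, adjusted p = 0.00102) and *Dusp5* (-0.66, adjusted p = 0.00139) were lower, and *Dusp10*, a JNK and p38 phosphatase, was higher (0.66, adjusted p = 0.000426).

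The plasma cell genes that passed the adjusted p were nearly all lower. Of 32 tested members 1 was called higher and 3 lower, and 1 and 15 passed the adjusted p, with a median of -0.18. For all tested genes the shares were 0.887% and 1.53% called and 6.03% and 9.21% passing the adjusted p. *Ly6c2*, a plasma cell surface antigen, had 85.6 and 81 FPKM in the control libraries and 39.9, 41.3 and 40.4 FPKM in the cKO libraries (-1.02, SE 0.0625, adjusted p = 7.25e-06). *Tent5c*, a poly(A) polymerase of immunoglobulin transcripts, had 36.6 and 38.7 FPKM in control and 21.7, 23.1 and 22.1 FPKM in cKO libraries (-0.73, adjusted p = 0.000426), and *Zbtb20*, a repressor that sustains plasma cells, had 3.96 and 3.87 and 2.72, 2.18 and 2.37 FPKM (-0.52, adjusted p = 0.00399). *Mzb1*, a chaperone of antibody secretion, was abundant and fell by a smaller fold, from 823 and 775 to 582, 574 and 577 FPKM (-0.47, adjusted p = 4.05e-05). *Jchain*, which joins IgM and IgA polymers, had 126 and 116 FPKM in control and 98.1, 85.6 and 78.6 FPKM in cKO libraries (-0.47, adjusted p = 0.0377). The master regulators were not called, with *Xbp1* at 256 and 252 FPKM in control and 241, 236 and 230.3 FPKM in cKO libraries (-0.11, adjusted p = 0.088) and *Prdm1* at 8.41 and 8.39 and 9.34, 10.01 and 9.85 FPKM (0.19, adjusted p = 0.141). *Ly6d*, the member called higher, had 154 and 139 FPKM in control and 249.8, 255 and 239 FPKM in cKO libraries (0.76, adjusted p = 3e-05); it marks early B lineage cells rather than secretion. The endoplasmic reticulum list, which shares members with this one, had 0 called genes among 40, while 17 passed the adjusted p, all lower, at a median of -0.11. *Hspa5*, the chaperone BiP, was at 86.9% of control (-0.20, adjusted p = 0.00787). In class-switch recombination 0 of 39 genes were called, and 2 passed the adjusted p upward and 4 downward (median -0.03). That is 15.4% of this list, beside 15.2% of all tested genes. *Ercc6l2*, an end-joining factor of switching and 1 of the 4, was at 73% of control (-0.45, adjusted p = 0.00179).

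Genes that act for and against cell survival were among the decreases. In the BCL2 and apoptosis list 0 of 32 genes were called higher and 2 lower, 1 and 13 passed the adjusted p, and the median was -0.18. Over all tested genes, 0.887% were called higher and 1.53% lower, while 6.03% and 9.21% passed the adjusted p. *Bcl2a1d*, an antiapoptotic NF-κB target, had 219.5 and 215 FPKM in the control libraries and 132, 141 and 133 FPKM in the cKO libraries (-0.68, adjusted p = 0.000171); its near-identical paralogs make the split of reads among them uncertain. *Bcl2l11*, which encodes the death activator BIM, had 46.6 and 48.1 and 31.1, 29.2 and 29.98 FPKM (-0.64, adjusted p = 4.32e-05). Among p53 targets 0 of 36 were higher and 3 lower (median -0.14), with *Cdkn1a*, the inhibitor p21, at 35.6 and 34.4 FPKM in control and 17.5, 17.9 and 18.6 FPKM in cKO libraries (-0.92, SE 0.0916, adjusted p = 0.000126). Of the other 2, *Phlda3* (-0.59, adjusted p = 0.0415) held in 10 and *Plk2* (-0.51, adjusted p = 0.00259) in 14 of 20 other settings. *Cdkn2a*, the locus of the inhibitors p16 and ARF, had 14.9 and 14.2 FPKM in control and 4.21, 5.99 and 4.14 FPKM in cKO libraries (-1.44, SE 0.143, adjusted p = 0.000126). *Cdkn2a* and *Cdkn1a* were the 2 called genes among 32 cyclins, CDK inhibitors, RB and E2F genes, both lower (median 0.00). Genes that carry out division were called about as rarely as all tested genes (2.42%). Of 44 DNA replication genes 0 were called higher and 1 lower, *Tyms*, the thymidylate synthase, with 32.3 and 30.3 and 20.8, 20.7 and 20.6 FPKM (-0.57, adjusted p = 0.000131), and of 42 mitosis genes 0 were called and 4 passed the adjusted p, all lower (median -0.11).

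The called members of the list of interferon-stimulated genes were all lower. Of 64 tested genes 0 were higher and 4 lower, and 3 and 15 passed the adjusted p (median -0.05). Beside these counts, 1.53% of all tested genes were called lower and 0.887% higher, and 9.21% passed the adjusted p downward and 6.03% upward. *Ifi44* had 7.18 and 7.79 FPKM in the control libraries and 3.12, 3.45 and 3.66 FPKM in the cKO libraries (-0.95, adjusted p = 0.000697). *Rsad2*, the antiviral enzyme viperin, whose promoter holds the ISRE match above, had 10.9 and 10.7 FPKM in control and 6.11, 7.26 and 7.23 FPKM in cKO libraries (-0.58, SE 0.133, adjusted p = 0.0146). *Oas1g* (-0.71, adjusted p = 0.00892) and *Ifi204* (-0.74, adjusted p = 0.00306) belong to families of close paralogs, for which the assignment of reads is uncertain. *Isg15*, a ubiquitin-like modifier, had 198 and 183 and 134, 145 and 145 FPKM and passed the adjusted p alone (-0.43, adjusted p = 0.0127). MHC class I genes, which interferon also raises, had 0 called members among 26, and *H2-K1* was at 86.9% of control (-0.20, adjusted p = 0.017).

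Genes of antigen receptor signalling and MHC class II presentation passed the adjusted p mostly upward. In MHC class II presentation 1 of 19 genes was called higher and 0 lower, 9 passed the adjusted p, all higher, and the median was 0.15. Across all tested genes 0.887% were called higher and 1.53% lower, and 6.03% and 9.21% passed the adjusted p. *Ciita*, the transactivator of class II genes, had 49.9 and 51.9 FPKM in the control libraries and 69.4, 70.5 and 76.2 FPKM in the cKO libraries, just short of the limit (0.49, SE 0.0661, adjusted p = 0.000782). *H2-Aa*, the α chain of I-A, had 1763 and 1753 and 1983, 2064 and 2007 FPKM (0.20, adjusted p = 0.0147). The called gene was *Marchf1*, a ubiquitin ligase that removes class II molecules from the surface, with 4.34 and 4.22 FPKM in control and 7.04, 7.02 and 6.15 FPKM in cKO libraries (0.55, adjusted p = 0.000721). In B cell receptor signalling 2 of 41 genes were called higher and 0 lower, and 14 and 2 passed the adjusted p (median 0.07). *Rasgrp3*, an activator of RAS, had 14.6 and 15.2 FPKM in control and 21.6, 21.8 and 21.2 FPKM in cKO libraries (0.50, adjusted p = 0.002), at the fold change limit, and its call held in 15 of 20 other settings. Inhibitory and Fc receptors had 0 called genes among 29, with 7 higher and 1 lower by the adjusted p (median 0.09), among them *Cd22* (0.35, adjusted p = 0.000282). B cell identity genes had 0 called members among 29 (6 higher and 4 lower by the adjusted p). Toll-like receptor and LPS sensing genes had 0 called members among 27, and 3 passed the adjusted p upward and 2 downward (median 0.01). *Tlr9* (0.44, adjusted p = 0.000349) and *Cd180* (0.32, adjusted p = 0.00208) were among those that passed upward. *Ighm* and the other constant region genes were not analysed here.

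**Figure D5:**
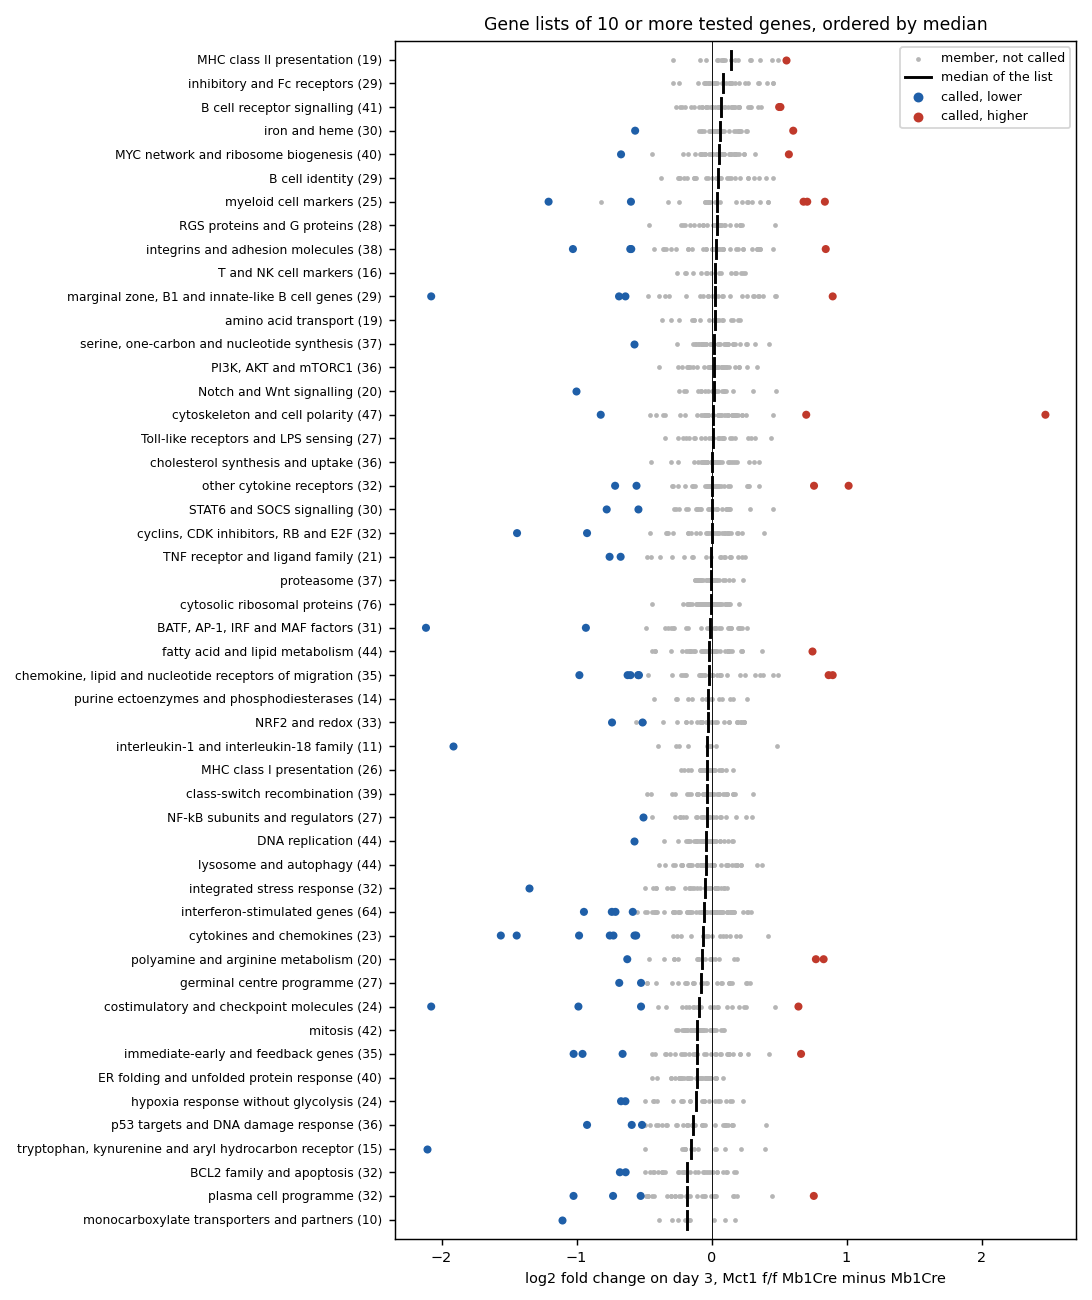
Log2 fold change on day 3 (cKO minus control) of each tested member of the gene lists with 10 or more tested genes, ordered by list median; the number of tested genes stands in brackets. Blue points were called lower and red points higher, grey points were not called, and black bars are medians, from 0.15 for MHC class II presentation to -0.18 for plasma cell, BCL2 family and monocarboxylate transporter genes.

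Genes of growth and housekeeping were called about as rarely as all tested genes (2.42%), but some of these lists passed the adjusted p more often. Of 76 cytosolic ribosomal protein genes 0 were called and 1, *Rpl22l1*, passed the adjusted p (-0.44, adjusted p = 0.000252). Of 37 proteasome genes 0 were called and 1 passed. Of 36 genes each of cholesterol synthesis and of PI3K, AKT and mTORC1 signalling 0 were called, and in amino acid transport 0 of 19. By the adjusted p alone, 13.9% of the cholesterol genes passed, 2 higher and 3 lower. In PI3K, AKT and mTORC1 signalling 25% passed, 4 higher and 5 lower, and in amino acid transport 26.3%, 2 higher and 3 lower. Over all tested genes 15.2% passed. In the MYC and ribosome biogenesis list 1 of 40 was higher, *Mxd3* (0.57, adjusted p = 0.00442), and 1 lower, *Mxi1* (-0.67, adjusted p = 9.37e-05), both MAX-binding antagonists of MYC. By the adjusted p, 27.5% of that list passed, 7 higher and 4 lower. *Myc* itself was not called and had 104 and 110.3 FPKM in control and 114, 122 and 116 FPKM in cKO libraries (0.13, adjusted p = 0.198). Single genes of metabolism stood out from these lists. *Ass1*, which makes argininosuccinate for arginine synthesis, had 35 and 31 FPKM in control and 54.8, 57.1 and 59.1 FPKM in cKO libraries (0.77, SE 0.0781, adjusted p = 0.000139). *Iscu*, the scaffold of iron-sulphur clusters, had 81.4 and 75.9 and 52.3, 52.6 and 53.4 FPKM (-0.57, adjusted p = 4.18e-05), and *Blvrb*, the biliverdin reductase B, had 27.4 and 28.6 and 45.6, 41.6 and 42.3 FPKM (0.61, adjusted p = 5.93e-05). *Nupr1*, a stress-induced chromatin protein, was the 1 called gene among 32 of the integrated stress response, with 11.1 and 11.5 FPKM in control and 3.91, 3.81 and 3.8 FPKM in cKO libraries (-1.35, SE 0.0637, adjusted p = 1.56e-06). *Atf4*, the transcription factor of this response, was not called (-0.05, adjusted p = 0.466), and *Ddit3* passed the adjusted p alone (-0.43, adjusted p = 0.0058).

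Among the other genes with the largest increases, *Serpinb1a*, an inhibitor of neutrophil-type proteases, had 19 and 19.6 FPKM in the control libraries and 39.9, 36.3 and 37.5 FPKM in the cKO libraries (0.94, SE 0.0465, adjusted p = 1.66e-06). *Ffar1*, a receptor for long-chain fatty acids, had 10.5 and 12.6 FPKM in control and 23.1, 23.9 and 23.6 FPKM in cKO libraries (0.97, adjusted p = 5.17e-05), and *Parm1* had 5.73 and 6.36 and 15.2, 13.8 and 14.6 FPKM (1.14, adjusted p = 2.26e-05). The cytoskeletal genes *Vim*, an intermediate filament, with 105 and 101 and 161, 169.6 and 172 FPKM (0.70, adjusted p = 5.17e-06), and *Rflnb*, a filamin-binding protein, with 29.1 and 30.5 and 58.9, 48.5 and 51.5 FPKM (0.80, adjusted p = 0.000127), were higher. *Mid1*, a microtubule-associated ubiquitin ligase, was the largest of these increases, with 3.26 and 3.5 FPKM in control and 22, 24 and 24 FPKM in cKO libraries (2.47, SE 0.445, adjusted p = 0.00413). On day 0 the *Mid1* values of the control libraries were 5.0 and 26.4 FPKM, which is a wider gap than that between the genotypes on day 0. *Pik3c3*, the class III PI3-kinase VPS34 of autophagy, had 46.9 and 46.9 FPKM in control and 117, 118 and 115 FPKM in cKO libraries (1.3, SE 0.128, adjusted p = 0.000126), and *Eaf2*, an elongation factor partner, had 22.5 and 20.8 and 44.7, 42.6 and 41.7 FPKM (0.96, adjusted p = 0.00052). Both were already apart on day 0, when *Pik3c3* had 35.4 and 40.9 FPKM in control and 181 and 119.9 FPKM in cKO libraries and *Eaf2* had 12.5 and 14.6 and 56.8 and 39.5 FPKM. *Dynlt1b* (1.5, adjusted p = 0.00133) and *Ly6k* (1.05, adjusted p = 0.0251) belong to families with similar copies, for which the counting is uncertain, and the call of *Ly6k* held in 14 of 20 other settings. Lower among the 15 largest decreases were also *Plcd1*, a phospholipase C, with 5.45 and 5.49 FPKM in control and 1.28, 1.11 and 1.41 FPKM in cKO libraries (-1.52, adjusted p = 9.07e-06), and *Cox6a2*, a muscle-type subunit of cytochrome c oxidase, with 29.2 and 27.7 and 9.94, 14.7 and 13.6 FPKM (-1.12, adjusted p = 0.0011). Near the targeted locus, *Lrig2* lies 127 kb from *Slc16a1* and was higher (0.76, adjusted p = 0.000156), while *Mov10* at 136 kb passed the adjusted p downward (-0.41, adjusted p = 0.000983). Neighbours of *Slc16a1* were listed by position, and these were named after their values were seen. *Phtf1* at 631 kb passed upward (0.17, adjusted p = 0.0392). *Rhoc* (131 kb, 0.04), *Capza1* (164 kb, 0.03) and *St7l* (206 kb, -0.05) did not pass.

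Several of the decreased genes are also known from dendritic cells, so markers of other cells are given beside them. The 26 myeloid and dendritic cell markers summed to 55.1 and 56.5 FPKM in control and to between 52.7 and 60.8 FPKM in cKO libraries on day 3, against 1594 to 2606 FPKM on day 0. On day 3, 12 of the 26 were below 1 FPKM in all 5 libraries, and the dendritic cell markers *Xcr1*, *Clec9a*, *Cd209a* and *Siglech* were at 0.26 FPKM or less. Of the 25 tested markers 3 were called higher and 2 lower, beside 0.887% and 1.53% of all tested genes. *Flt3*, a growth factor receptor of progenitors and dendritic cells, had 17.6 and 17.4 FPKM in control and 6.67, 6.96 and 7.41 FPKM in cKO libraries (-1.21, SE 0.0957, adjusted p = 3e-05), and *Zbtb46* had 4.8 and 4.98 and 2.65, 2.87 and 3.18 FPKM (-0.60, adjusted p = 0.00156). The macrophage markers *Lyz2* (0.71, adjusted p = 0.0015), *Adgre1* (0.68, adjusted p = 0.000425) and *Marco* (0.84, adjusted p = 0.00158) were higher in cKO libraries. *Lyz2* had 11.5 and 10.0 FPKM in control and 16.8, 17.6 and 20.4 FPKM in cKO libraries. *Adgre1* was low, with 0.44 and 0.58 and 1.5, 1.37 and 1.39 FPKM, and *Marco* had 1.39 and 1.85 and 3.74, 3.01 and 4.36 FPKM. In other settings the change of *Adgre1* ranged from 0.22 to 1.33 and that of *Marco* from 0.39 to 1.14. The part of myeloid and dendritic cells in the differences above was not tested. T and NK cell markers summed to 185 and 187 FPKM in control and to between 178 and 193 FPKM in cKO libraries, of which *Gzma* and *Gzmb* made up most, and erythroid and platelet markers to 9.35 and 10.8 FPKM and to between 7.28 and 10.5 FPKM; of these 2 lists 0 genes were called.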

How the data were processed

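RNA sequencing of splenic B cells was re-analysed from 9 libraries, with genotype and day taken from their labels. Values deposited by the authors are FPKM for 17596 genes, rounded to 2 decimals. Per the labels the sequencing provider built and analysed the libraries, and the submitters' processing notes name Bowtie2 and the builds GRCm38 and mm10. The counting tool is not given in the sources used here. FPKM hold no counts, so depth is unknown, precision rests on 2 or 3 libraries per group, and genes with near-identical copies are uncertain.

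FPKM were used on the log2(FPKM + 1) scale, with no added scaling. Genes averaging 1 FPKM or more across all 9 libraries (10823) entered limma 3.58.1 (R 4.3.3), with 1 mean for each of 4 groups, moderation by empirical Bayes along an expression trend, and p-values adjusted by Benjamini-Hochberg. The 4 groups share 1 estimate of the spread. *Slc16a1* was also compared by an exact permutation test (scipy 1.17.1). On data simulated from these libraries, 99 of 100 genes changed by 1 on the log2 scale and 99 of 100 changed by 2 were called, and 2 of 10623 unchanged genes. The simulated noise was independent and normal, with the spread within these groups and 1 mean per gene. It therefore cannot give error rates for differences between mice.

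Named were *Slc16a1*, *Batf3*, *Ctla4* and *Ido1*; the 15 genes with the largest called change in each direction at 5 FPKM or more, without overlap between groups and without predicted models; and from 55 gene lists every called member and up to 4 abundant ones. Some of the genes so selected are not reported here. Members, lists and rules were chosen with earlier results of these data known, and other members that passed the adjusted p alone, as well as *Lrig2*, *Mov10*, *Prdm1*, *Cd274* and *Tnf*, were named after their values were seen. Neighbours and promoters come from RefSeq tables of GRCm38.p6, in which 10797 tested genes were matched. Alternatives were pseudocounts, filters, scalings, fold change limits, fewer libraries, a replicate block and a fit without a trend.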

Additional observations from a re-analysis of the deposited data

Results flagged for a closer look

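The genotype difference on day 3 was set against that on day 0 for the 31 genes named first, as the interaction of genotype and day in limma, and 27 differed between the days at an adjusted p under 0.05 over all tested genes. The 27 values, each the day 3 log2 difference (cKO minus control) minus that of day 0, follow. The difference was more negative on day 3 for *Slc16a1* (-1.06, adjusted p = 0.000424), *Batf3* (-2.17, adjusted p = 0.000452), *Ctla4* (-2.08, adjusted p = 4.09e-05), *Ido1* (-2.16, adjusted p = 6.32e-05), *Il1r2* (-2.17, adjusted p = 0.00537), *Htr7* (-1.6, adjusted p = 0.000298), *Lrrc32* (-1.21, adjusted p = 0.00078) and *Ccl22* (-1.77, adjusted p = 0.000298). The same held for *Plcd1* (-1.36, adjusted p = 0.000563), *Il6* (-1.56, adjusted p = 0.000157), *Cdkn2a* (-1.3, adjusted p = 0.00525), *Nupr1* (-1.44, adjusted p = 4.65e-05), *Flt3* (-1.52, adjusted p = 0.000364), *Eng* (-1.16, adjusted p = 0.000716) and *Cox6a2* (-0.85, adjusted p = 0.0489). It was more positive on day 3 for *Mid1* (2.44, adjusted p = 0.0445), *Parm1* (1.13, adjusted p = 0.000826), *Il9r* (0.70, adjusted p = 0.0387), *Ffar1* (1.11, adjusted p = 0.000842), *Serpinb1a* (0.98, adjusted p = 6.32e-05) and *S1pr1* (0.98, adjusted p = 0.000424). So it was for *Klf2* (1.16, adjusted p = 0.000364), *Slc37a2* (1.06, adjusted p = 0.00448), *Itgb7* (1.0, adjusted p = 0.00154), *Rflnb* (0.60, adjusted p = 0.012) and *Ass1* (0.63, adjusted p = 0.00957). For *Eaf2* the value was -0.78 (adjusted p = 0.0236), because the gene was higher in cKO libraries on both days and by more on day 0. These genes were chosen by the size of their day 3 difference, which enters the interaction. *Slc16a1*, *Batf3*, *Ctla4* and *Ido1* were also given with the comparison, but they too were among the 15 largest decreases. *Mid1* and *Cox6a2* lay closest to the threshold, and the day 0 control libraries had 5.0 and 26.4 FPKM of *Mid1*. Among those that did not pass were *Dynlt1b* (0.74, adjusted p = 0.189), *Pik3c3* (-0.62, adjusted p = 0.0679) and *Ly6k* (-0.10, adjusted p = 0.901).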

How the results depend on the processing

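The number of called genes was 421 with a pseudocount of 0.1, 120 with a pseudocount of 5, 54 with a log2 limit of 1 and 1650 with no fold change limit, against 262 in the report. In the other settings it lay between 178 (mean of at least 5 FPKM) and 270, and between 256 and 270 when 1 library was left out. In 0 settings was a gene of the 262 called in the opposite direction, and 93 of the 262 were called in all of 20 settings other than the fold change limits. Of 30 called genes among those named first, 21 were. The calls of *Rsad2*, *Oas1g*, *Zbtb20*, *P2ry12* and *Gamt* held in 16 of the 20 and that of *Ptgir* in 15. Higher genes made up 36.6% of the calls, 31.3% with no filter on low values, 41.8% with a pseudocount of 0.1 and 50.0% with a log2 limit of 1. *Slc16a1* was lower and past the threshold in each setting run, at log2 fold changes from -1.17 to -0.89. The replicate number as a block gave 262 called genes, 90 higher and 172 lower, of which 235 were called without it. Libraries of the same number did not deviate together on day 3 (correlations of deviations -0.05 and -0.07), and the labels give no other pairing, so the numbers were not taken as pairs. With 2 and 3 libraries and no counts, low genes are limited most: a change near 1 FPKM depends on the pseudocount.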

Other observations

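Genes outside the families described above include the developmental ligand *Jag2*, which activates Notch receptors. *Jag2* had 3.08 and 3.17 FPKM in the control libraries and 1.14, 1.12 and 0.92 FPKM in the cKO libraries (log2 fold change -1.0, SE 0.089, adjusted p = 5.87e-05). It was the 1 called gene of 20 tested in the Notch and Wnt list (median 0.01), beside 2.42% called among all tested genes. By the adjusted p, 15% of that list passed, 2 higher and 1 lower, beside 15.2% of all tested genes. *Itgb3*, the integrin β3 chain, had 30.3 and 29.8 FPKM in control and 14.7, 13.7 and 14.4 FPKM in cKO libraries (-1.03, adjusted p = 2.5e-05). In polyamine metabolism *Azin2*, an antizyme inhibitor, was lower (-0.62, adjusted p = 0.0028) and *Gamt*, of creatine synthesis, was higher (0.83, adjusted p = 0.00913). Among 182 tested solute carriers, which were called about as often as all tested genes (2.42%), 1 was called higher, *Slc37a2* (0.85, adjusted p = 6.94e-04), and 3 lower, *Slc16a1*, *Slc66a2* (-0.78, adjusted p = 4.14e-05) and *Slc19a2* (-0.50, adjusted p = 0.00208), the last of which carries thiamine and was called in 13 of 20 other settings.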
